A study of Mus musculus with 2 samples.

Results

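ETS factors are DNA-binding proteins that share the ETS domain, and 10 of their genes were examined here as loci of accessible chromatin: Spi1, Fli1, Erg, Ets1, Ets2, Etv6, Elf1, Elf2, Elk4 and Gabpa. They were chosen by name and are 10 of 21938 protein-coding genes in the annotation. The rule uses no measured value, but the genes were chosen with earlier results of these data known. Spi1, Fli1, Erg and Ets1, which have well-known parts in myeloid, megakaryocyte, stem, endothelial or lymphoid cells, are called the lineage genes, and the other 6 are called the broadly used genes. The accessible regions within 100 kb of each gene body were collected. A promoter region had its summit, the base of highest signal, within 1 kb of an annotated transcription start site (TSS), and all remaining regions are called distal. Distances are given from the nearest annotated start of the gene named, with − for upstream.

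The assay was ATAC-seq: a transposase cuts DNA where chromatin is open and tags the ends for sequencing. The cells were G1E-ER4, a mouse erythroid progenitor line that lacks its own functional Gata1 and carries GATA1 fused to the hormone-binding domain of the estrogen receptor; the labels give the strain as C57BL/6J and call the cells Gata1 restored. Both samples, biological replicates 1 and 2, were 50000 cells each after 24 h in 10 nM 17Beta-estradiol, which activates the fusion protein. All values thus describe one line, in one induced state, and an average over its cells, and no untreated cells were analysed here. The labels do not say whether the replicates came from separate cultures, so the spread between them may be partly technical.

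ETS factors recognise DNA with a GGAA core, and the flanking bases differ between subfamilies. In blood, PU.1, the product of Spi1, directs myeloid and B cell development, and PU.1 and GATA1 are known to restrain each other's activity. FLI1 acts with GATA1 at megakaryocyte genes, and GABPA is the DNA-binding subunit of GABP, which drives many housekeeping and mitochondrial promoters.

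The loci ranged from many accessible regions to none. In the conservative list, which holds the peaks that were reproducible between the replicates at an irreproducible discovery rate (IDR) below 0.05, Elf1 had 16 regions within 100 kb of its body, Elf2 had 15 and Spi1 had 12. Erg and Ets1 had 0. A promoter region was present at all 6 broadly used genes and, of the 4 lineage genes, at Spi1 alone. That is 7 of 10 genes, beside 42.9% of all protein-coding genes.

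Stretches of the member regions are shown here, on the plus strand of mm10 (read from the RefSeq assembly GRCm38.p6), with motif matches in capitals. Each reaches up to 100 bp to either side of the summit, the same window in which motifs were searched on both strands. The GATA motif was AGATAA or TGATAA. The ETS motif was CCGGAAGT, used by many ETS factors, or GAGGAAGT, which PU.1 prefers. The RUNX motif was TGTGGT. The E-box GATA composite was CTG followed after 7 to 9 bases by a GATA motif, so it always overlaps a GATA match. The first pair is from the Spi1 locus: the region near its upstream starts at chr2:91082986-91083186, with 3 RUNX matches, and its strongest distal region at chr2:91060861-91061061, with 2 GATA matches of which one is part of a composite, so that CAG is also in capitals.
Spi1 upstream start: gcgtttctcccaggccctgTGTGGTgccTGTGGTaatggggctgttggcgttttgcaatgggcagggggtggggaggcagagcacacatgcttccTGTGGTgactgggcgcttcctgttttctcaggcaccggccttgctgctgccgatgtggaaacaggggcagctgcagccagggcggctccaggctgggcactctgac
Spi1 distal: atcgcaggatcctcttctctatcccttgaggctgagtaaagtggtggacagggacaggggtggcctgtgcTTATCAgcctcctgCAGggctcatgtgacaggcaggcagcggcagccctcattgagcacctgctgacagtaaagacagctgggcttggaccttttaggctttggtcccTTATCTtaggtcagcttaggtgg

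The Etv6 pair shows the summit of its promoter region at chr6:134034874-134035074, which held none of the motifs, and its strongest distal region at chr6:133960790-133960990, the only distal region of the 10 genes in the conservative list that held an ETS match. It also held a GATA match.
Etv6 promoter: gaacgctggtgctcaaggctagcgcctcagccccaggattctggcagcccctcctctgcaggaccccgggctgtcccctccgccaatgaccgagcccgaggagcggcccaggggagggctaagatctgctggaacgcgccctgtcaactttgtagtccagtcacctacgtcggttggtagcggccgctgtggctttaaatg
Etv6 distal: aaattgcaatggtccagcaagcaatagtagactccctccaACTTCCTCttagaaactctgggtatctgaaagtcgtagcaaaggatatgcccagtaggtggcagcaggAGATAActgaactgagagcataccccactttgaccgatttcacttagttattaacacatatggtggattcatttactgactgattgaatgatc

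Fli1, Erg and Ets1 are shown by distal regions, because none of them had a promoter region in the conservative list. The Fli1 stretch, at chr9:32521336-32521536 in a Fli1 intron, holds a GATA match. The Erg stretch at chr16:95658927-95659127 and the stretch between Fli1 and Ets1 at chr9:32549613-32549813 come from a looser list and each hold a RUNX match.
Fli1 distal: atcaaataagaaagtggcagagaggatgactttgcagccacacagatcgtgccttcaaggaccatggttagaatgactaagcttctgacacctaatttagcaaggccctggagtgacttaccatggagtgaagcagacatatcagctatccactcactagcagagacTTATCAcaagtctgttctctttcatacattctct
Erg distal: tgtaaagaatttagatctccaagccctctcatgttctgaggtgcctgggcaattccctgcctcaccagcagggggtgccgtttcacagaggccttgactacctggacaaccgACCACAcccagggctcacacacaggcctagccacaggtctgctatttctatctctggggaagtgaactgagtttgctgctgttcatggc
Ets1 and Fli1 distal: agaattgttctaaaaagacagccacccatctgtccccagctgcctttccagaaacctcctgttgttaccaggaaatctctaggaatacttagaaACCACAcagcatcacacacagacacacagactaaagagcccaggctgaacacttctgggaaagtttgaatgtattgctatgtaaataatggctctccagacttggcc

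The last pair was chosen after the values were seen, as was the Fli1 stretch, which is the second strongest at that gene. The Elk4 promoter at chr1:132007463-132007606 holds the ETS match CCGGAAGT, and the strongest distal region of Elf1, at chr14:79530260-79530460, holds a composite.
Elk4 promoter: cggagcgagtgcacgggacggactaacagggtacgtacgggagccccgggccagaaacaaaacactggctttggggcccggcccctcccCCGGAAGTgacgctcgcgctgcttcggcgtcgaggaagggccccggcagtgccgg
Elf1 distal: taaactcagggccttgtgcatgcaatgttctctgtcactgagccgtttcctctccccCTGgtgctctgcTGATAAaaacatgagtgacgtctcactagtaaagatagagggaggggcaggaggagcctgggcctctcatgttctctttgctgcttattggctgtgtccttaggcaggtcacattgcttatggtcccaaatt

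The conservative list held 20080 regions, of which 10782 were promoter and 9298 distal. Of all protein-coding genes, 77.2% had a region of either kind within 100 kb. Each replicate also had its own IDR list, of 14012 regions in replicate 1 and 15564 in replicate 2, and a looser replicated list, with no IDR threshold, held 46345. Read depth was unknown, so a region missing from a list may be one that was not detectable at the depth of these libraries. The height of a peak is given as its signal, the authors' enrichment value per peak, for both libraries together and then for each library. Signals from different lists were not used as a measure of change.

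The cells carried the erythroid marks that the label implies. Of 10 erythroid marker genes, 9 had a promoter region, beside 42.9% of all genes, among them Hba-a1 and Epb42, and the exception was Alas2, which had one in the replicated list. Of 10 myeloid markers, 1 had a promoter region, namely Fcgr3. The other 9, among them Csf1r, Itgam, Mpo and Elane, had none, though Csf3r had one in the replicated list. Megakaryocyte markers had 4 of 10, near the 42.9% of all genes, and lymphoid markers 2 of 10, Ebf1 and Rag1. Distal regions were less selective. At least 1 was present at 10 of 10 erythroid, 9 of 10 myeloid, 8 of 10 megakaryocyte and 7 of 10 lymphoid markers, beside 60.1% of all genes.

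**Figure D1:**
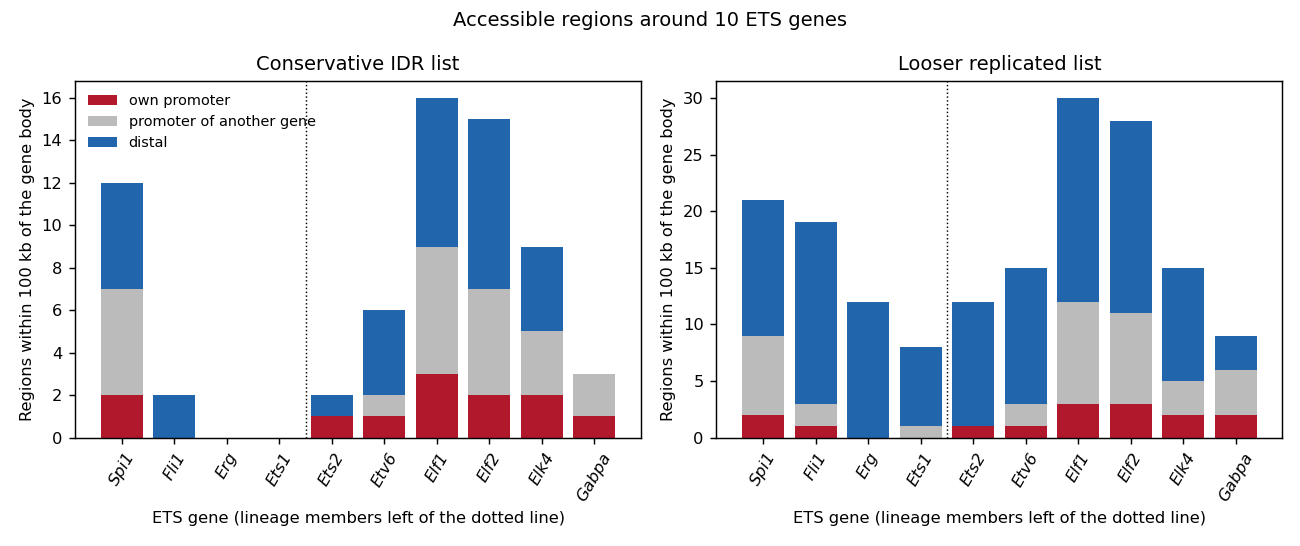
Number of accessible regions within 100 kb of each ETS gene, stacked as promoter regions of the gene itself, promoter regions of another gene and distal regions, in the conservative IDR list (left) and the looser replicated list (right; the vertical scales differ). Erg and Ets1 have no region on the left, and 12 and 8 on the right.

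Spi1 was the only lineage gene with promoter regions, of which it had 2. The stronger lies at chr2:91096510-91096893, over an exon, with its summit at −77 bp from one annotated start and +607 bp from another. Its signal was 8.79 for both libraries together, 7.55 in replicate 1 and 7.74 in replicate 2, so the replicates were within 0.130 (SD, n = 2) of their mean of 7.64. Both libraries' own lists held the region. It ranked at percentile 11.7 of the 9406 genes that had a promoter region.

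The other, at chr2:91082933-91083421, counted as a promoter region only through a pair of starts annotated further upstream: it lies +678 bp from the nearer of them and −13.0 kb from the start at base 91096096. Its signal was 8.66, with 8.14 in replicate 1 and 6.68 in replicate 2. It passed the joint IDR threshold at 0.0380 and was in neither library's own list. This is the Spi1 region with the 3 RUNX matches printed above. Spi1 is known to have an upstream regulatory element that binds RUNX1, and whether this region is that element was not tested.

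Of the 5 distal regions of Spi1, the strongest was in an intron of the neighbouring gene Psmc3, at −21.4 kb, with a signal of 12.6 (12.3 in replicate 1 and 9.41 in replicate 2). It was in both libraries' lists and is the one with the composite motif. The other 4 had signals of 7.01 to 8.99. The one at +4.77 kb, in a Spi1 intron, had a signal of 8.99 and was in the list of replicate 2 alone. Regions at +15.8 kb, +18.5 kb and −67.4 kb were in neither library's list.

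Spi1 sits among genes with strong promoters. The promoter region of Psmc3, a proteasome subunit gene, had a signal of 20.4, that of Acp2 had 17.0, that of Slc39a13 had 15.2 and the stronger one of Madd had 15.0. Both promoter regions of Spi1 were weaker than each of these in both libraries. The largest library value of the Spi1 regions was 8.14, and the smallest of the neighbours' was 12.7. With 5 distal regions Spi1 stood at percentile 89.3 of all protein-coding genes, whose median was 1. The libraries' own lists held 1 and 2 of them.

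Fli1 encodes a factor of megakaryocytes and endothelium. It had 2 regions, both inside its 121-kb body and both distal. The first, at chr9:32476530-32477003, has its summit in an exon at +64.9 kb; its signal was 11.4, with 8.81 in replicate 1 and 10.1 in replicate 2, and both libraries' lists held it. The second is the intronic region at +20.2 kb whose sequence is printed above (chr9:32521075-32521728), with a signal of 11.2, 11.3 in replicate 1 and 8.19 in replicate 2. Although its value was higher in replicate 1, it was in the own list of replicate 2 alone.

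The Fli1 promoter appeared in the replicated list, where 8 of 10 members had a promoter region, beside 47.8% of all genes. Its region there, at chr9:32541468-32541742, lies −4 bp from the annotated start. Its signal was 5.19 at an IDR of 0.302, with 4.98 in replicate 2 and no peak in replicate 1.

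Erg, a stem cell and endothelial factor, is the longest of the lineage genes at 227 kb, with 6 annotated starts. It had no region in the conservative list and no promoter region in any list read, including the largest, an archived list of 157788 regions in which 56.6% of all genes had one. Per the deposited file list, that list came from other inputs than the rest, so its values stand beside theirs only as an alternative. Each library's own list held 1 distal region near Erg, and they were different ones. In replicate 1 it was the intronic region chr16:95438875-95439530 (bounds as in the replicated list) at +19.98 kb, with a signal of 7.33 there and 3.87 in replicate 2. In replicate 2 it was chr16:95658703-95659246 at −72.4 kb, with a signal of 9.81 there and 4.27 in replicate 1. Neither passed the joint threshold (IDR 0.325 and 0.327), and the second is nearer to the start of Ets2, from which it lies at −43.0 kb.

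Ets1 encodes a factor of lymphoid and endothelial cells. It had no region in the conservative list or in either library's own list. Like Erg, it had no promoter region in any list read, the archived one included. In the replicated list it had 8, all upstream, from −96.0 kb to −28.7 kb. All 8 were also within 100 kb of Fli1, its neighbour, since their windows share 107 kb. One of them is the Fli1 promoter region. The strongest, at −86.5 kb, lies −6.85 kb from the Fli1 start and had a signal of 7.33 at an IDR of 0.326, with 3.91 in replicate 1 and 7.94 in replicate 2; its sequence is printed above.

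Within its own 122-kb body, Ets1 had 0 regions in the replicated list. Of the 2492 protein-coding genes at least 100 kb long, 30.6% had none. The archived list held 1 in the body, and 2.61% of the long genes had none there. Of the lineage genes of such length, Fli1 had 11 regions in its body in the replicated list and Erg had 6.

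The 3 lineage genes without a conservative promoter region differed in base composition. The ratio of observed to expected CpG was taken in the 500 bp on either side of every annotated start, and the highest per gene was kept. It was 0.448 at Erg, 0.656 at Fli1 and 0.831 at Ets1, beside a median of 0.627 over all genes. The number of starts ran from 2 at Fli1 to 13 at Elf2, and more starts give more chances of a high value. Among genes at or above 0.5, 66.6% had a promoter region, and among those below 0.5 it was 7.49%. Ets1, at percentile 78.9, and Fli1 thus lacked a promoter region although most genes of their CpG class had one. Spi1 had one with a ratio of 0.341. The broadly used genes lay between 0.805 (Gabpa) and 1.04 (Elf2), so CpG content moves with the division into lineage and broadly used genes, Ets1 excepted, and its part in the counts was not tested.

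**Figure D2:**
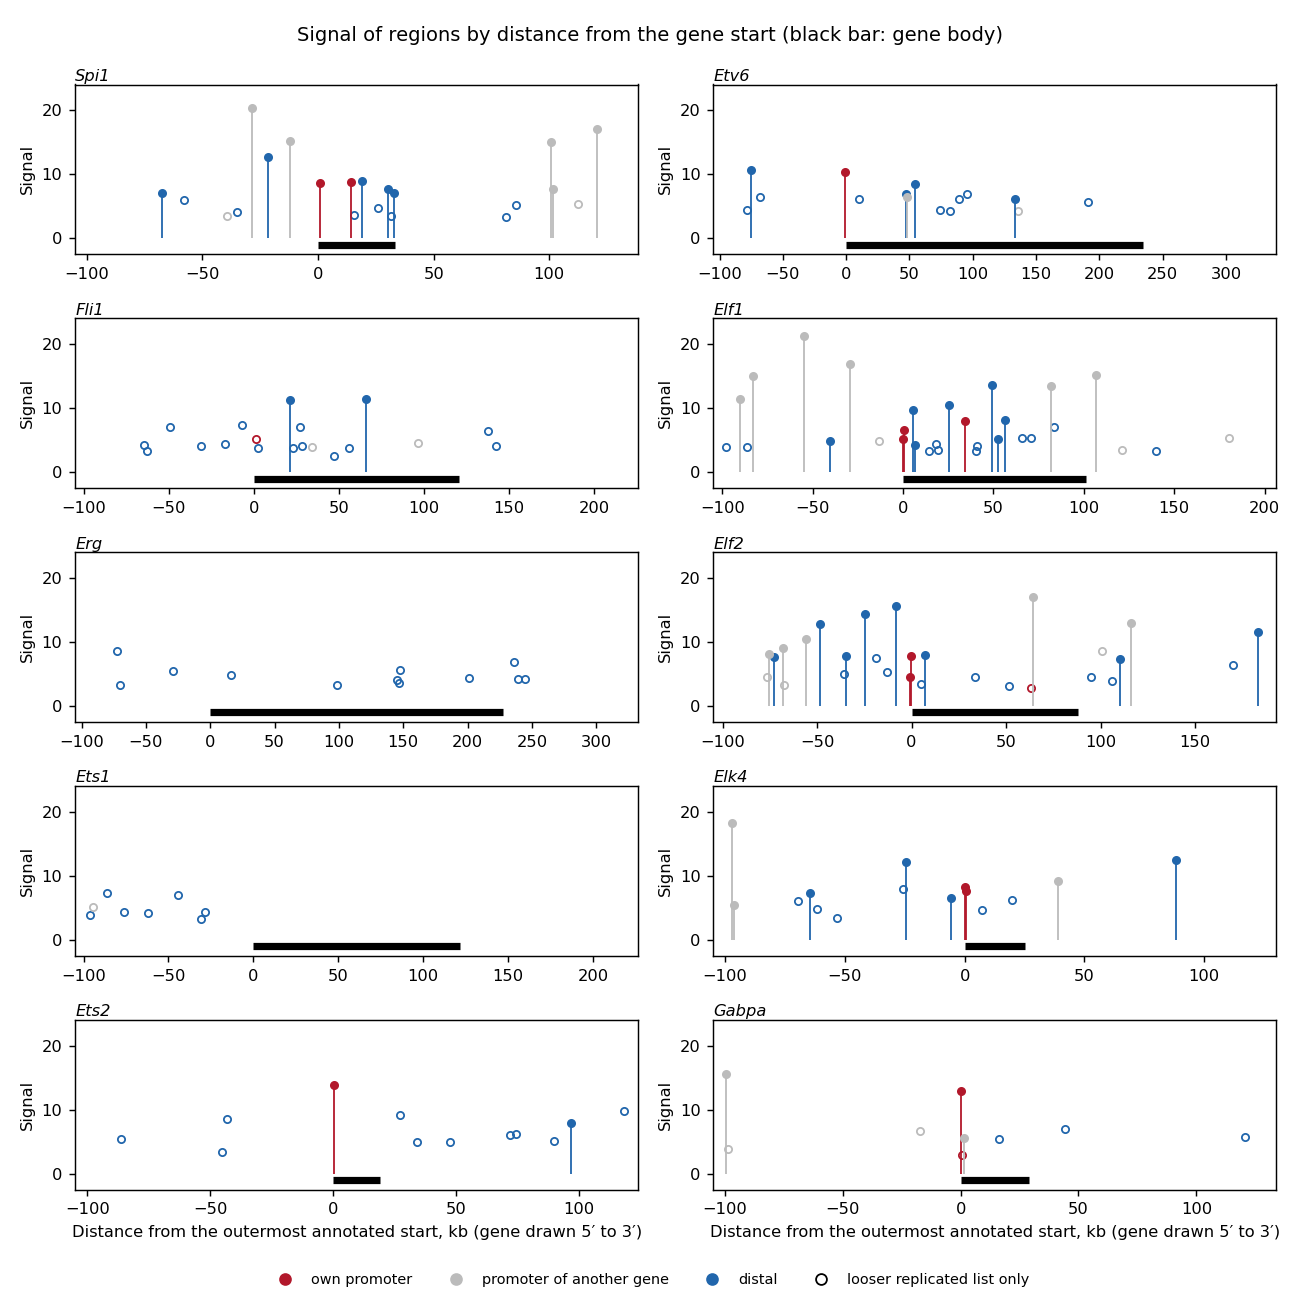
Regions around each gene, drawn in the direction of transcription, with distance in kb from the outermost annotated start on the horizontal axis and signal (the authors' value per peak, both libraries together) on the vertical axis. Filled points on stems are in the conservative list and open points in the replicated list only; distances in the text are from the nearest start of the gene and can differ. The 8 open points of Ets1 all lie upstream of the gene body, and Erg has no point at a start.

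Among the broadly used genes, Ets2, a factor activated by MAP kinase signalling, had the strongest promoter region. It lies at chr16:95701777-95702782, −64 bp from the start, with a signal of 13.8, of 10.5 in replicate 1 and 12.9 in replicate 2. The locus was otherwise sparse, with 1 distal region at +81.0 kb (signal 7.87), which was in neither library's list. The replicated list held 11 distal regions near Ets2, including ones of 9.15 at +11.3 kb and 9.73 at +102 kb. These had IDRs of 0.513 and 0.299. At both, replicate 2 was the higher: 10.4 against 3.67 at the first and 10.3 against 5.03 at the second.

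Gabpa had a promoter region at chr16:84834445-84835430, +38 bp from its start and shared with the start of Atp5j, a subunit gene of the mitochondrial ATP synthase that is transcribed the other way. Its signal was 12.9, with 11.8 in replicate 1 and 12.7 in replicate 2. It held the ETS match GAGGAAGT. Gabpa was the only broadly used gene with no distal region in the conservative list, and neither library's list held one. Its window did hold a weaker region at +1.20 kb, near another Atp5j start (5.61, in the list of replicate 2), and the promoter of Mrpl39 at −99.6 kb, just inside the 100 kb limit (15.6).

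Etv6, a repressor needed for stem cell survival and platelet formation, had a promoter region of 1533 bp at chr6:134034818-134036350, made of 6 overlapping peaks. Its signal was 10.4, with 9.08 in replicate 1 and 9.70 in replicate 2. Its summit, that of the strongest of these peaks, was −726 bp from the nearest start, at base 134035700, which the region itself covers. This summit and that of the weaker Elf2 region, at −766 bp, lay closest to the 1 kb limit on the inner side. The comparison covers promoter regions at the ETS genes' own starts. With a limit of 500 bp Etv6 lost its promoter region, because the limit applies to the summit alone. On the outer side were a region +1.19 kb from an Elf2 start (signal 17.1) and the Gabpa region at +1.20 kb (5.61).

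Etv6 had 4 distal regions. The strongest, at −74.8 kb, had a signal of 10.6 (8.91 in replicate 1 and 8.78 in replicate 2) and was in the list of replicate 1 alone. It is the intergenic region shown above with a GATA and an ETS match. Inside the gene, the region at +54.4 kb had a signal of 8.46, that at +46.7 kb had 6.87 and that at −64.9 kb had 6.11. The intronic region at +47.7 kb, counted as a promoter region of an unconfirmed transcript, Gm43984.

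Elf1 and Elf2, close relatives expressed in many tissues and in blood, had the most regions. Of these, 6 of 16 at Elf1 and 5 of 15 at Elf2 were promoter regions of other genes. Elf1 had 3 promoter regions of its own. The strongest, of 8.01 (6.34 in replicate 1 and 7.74 in replicate 2), was at an internal start, chr14:79515467-79515739, and not at the first. At the first start, which faces that of Wbp4, a splicing factor gene, there were regions of 5.15 and 6.53. All 3 were weak: the strongest stood at percentile 7.87 of genes with a promoter region.

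The strongest distal regions of Elf1 exceeded its promoter. The intronic one shown above, at +14.7 kb from an internal start, had a signal of 13.7, with 13.7 in replicate 1 and 12.03 in replicate 2. Those at −9.26 kb from an internal start and +5.60 kb from the first had 10.4 and 9.75. All 3 were in both libraries' lists. The remaining 4 ranged from 4.22 to 8.13.

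Elf2 showed the same order. Its stronger promoter region, chr3:51340580-51341011, had a signal of 7.83, with 6.55 in replicate 1 and 7.35 in replicate 2. Its strongest distal regions, at −8.35 kb, −24.7 kb and −48.4 kb, had 15.6, 14.4 and 12.8, and each was in both libraries' lists. That at −48.4 kb lies in an exon of Mgarp, +7432 bp from the start of that gene. At −8.35 kb the values were 13.7 in replicate 1 and 13.1 in replicate 2, both above the promoter. With 8 distal regions Elf2 was at percentile 97.9 of all genes, and Elf1, with 7, at percentile 96.2. The strongest region in the Elf2 body, of 17.1, lies +1.19 kb from an internal Elf2 start and was assigned to 4930577N17Rik, an unconfirmed transcript.

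Elk4, which acts with serum response factor, had promoter regions at neighbouring starts. That at chr1:132007259-132007702, which holds the CCGGAAGT match, had a signal of 8.22, with 6.86 in replicate 1 and 7.91 in replicate 2. The other had 7.61, with 7.39 and 6.62. Of its 4 distal regions, those at +77.3 kb (12.5) and −24.5 kb (12.1) were stronger than the promoter and in both libraries' lists. At both, replicate 2 was the higher, with 12.3 against 8.93 and 11.4 against 8.26. The region at −24.5 kb is nearer to the start of Slc45a3, from which it lies at +4117 bp.

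The promoters of the 7 of these 10 ETS genes that had one lay in the lower part of the range of promoters. They ran from percentile 6.98 for Elf2 to 48.8 for Ets2. Ordered by signal they ran Ets2 (13.8), Gabpa (12.9), Etv6 (10.4), Spi1 (8.79), Elk4 (8.22), Elf1 (8.01) and Elf2 (7.83). The median of the 7 was 8.79 and that of all genes with a promoter region was 13.9, and 0 of the 7 reached the latter. The replicates were apart by an SD of 0.130 (Spi1) to 1.70 (Ets2). Across the replicates the values of Ets2 and Gabpa overlapped, and those of Elk4 overlapped with Spi1, Elf1 and Elf2. Replicate 2 was the higher at all 7. Compared within each library, Ets2 and Gabpa changed order, as did Elk4 and Spi1, and Elf1 with Spi1 and with Elf2. These pairs could not be ordered. Elk4 was above Elf1 in both libraries (6.86 against 6.34 and 7.91 against 7.74) and above Elf2 (6.55 and 7.35). Both Elf2 values lay below both Spi1 values, at the nearest 7.35 against 7.55. Both values of Etv6 lay above those of Elk4, Spi1, Elf1 and Elf2 and below those of Ets2 and Gabpa.

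**Figure D3:**
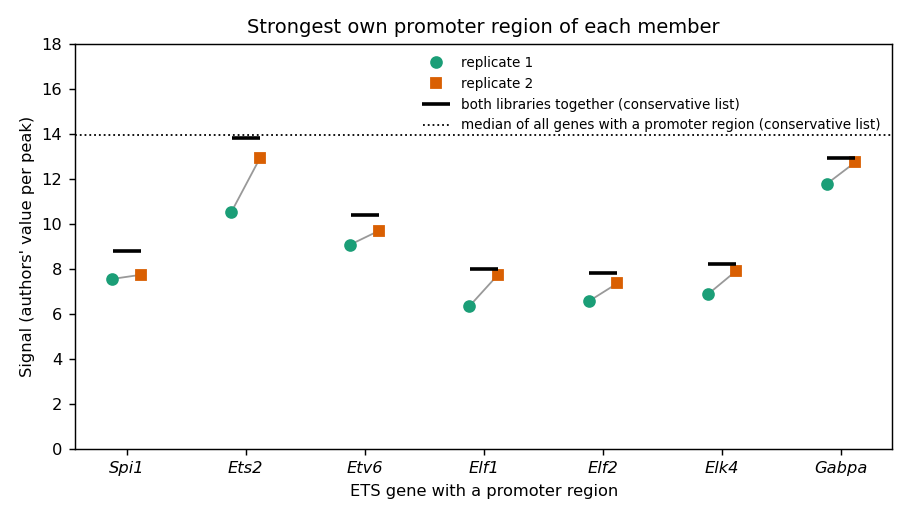
Signal of the strongest promoter region of each of the 7 ETS genes that had one, in replicate 1 (circles), in replicate 2 (squares) and for both libraries together (bars), in the authors' units per peak. The dotted line is the median of all 9406 genes with a promoter region, 13.9, and all bars lie below it.

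Set side by side, 1 of 4 lineage genes and 6 of 6 broadly used genes had a promoter region, and the counts were the same in the list of replicate 1 (beside 39.2% of all genes) and of replicate 2 (40.4%). Genes are not replicates, and the members and their classes were set with earlier results of these data known, so no test was made. At least 1 distal region was present at 7 of 10 genes, beside 60.1% of all genes. The mean number of distal regions was 1.75 at the lineage genes, of which 5 of 7 were at Spi1, and 4 at the broadly used genes, with 1.70 over all genes. In the libraries' own lists it was 1.00 ± 0.354 (SD, n = 2) at the lineage genes, 2.67 ± 0.707 at the broadly used genes and 1.01 ± 0.137 over all genes.

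In the looser replicated list the classes were closer. There the mean was 11.75 at the lineage genes and 11.83 at the broadly used genes, beside 5.04 over all genes, and 10 of 10 members had a distal region, beside 81.4% of all genes. The lineage mean counts regions shared by Fli1 and Ets1 at both: its 47 distal regions are 40 when each is counted once, and the 71 of the broadly used genes are all distinct. Fli1 rose from 2 distal regions to 16 between the lists and Erg from 0 to 12, while Elf2 went from 8 to 17. In the archived list the means were 26.25 and 35.5. The windows differ in length, but per 100 kb the median in the replicated list was 3.90 for the lineage genes, 4.73 for the broadly used genes and 1.71 for all genes.

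The loci differed in the share of their replicated-list regions that reached the IDR threshold of the conservative list. At each gene the number below 0.05 equals its count in the conservative list, so only the totals beside it are new. An IDR below 0.05 was reached by 2 of 19 regions at Fli1, 0 of 12 at Erg, where the lowest was 0.0700, and 0 of 8 at Ets1, where it was 0.271. Over all regions of the replicated list, promoter and distal, it was 43.2%. At Spi1 it was 12 of 21. The broadly used genes ranged from 2 of 12 at Ets2, 3 of 9 at Gabpa and 6 of 15 at Etv6 to 16 of 30 at Elf1, 15 of 28 at Elf2 and 9 of 15 at Elk4, so Ets2 was close to Fli1. Of distal regions alone, 7 of 40 (17.5%) at the lineage genes and 24 of 71 (33.8%) at the broadly used genes were below 0.05, beside 30.3% of all 30632 distal regions. Of the 19 regions at Fli1, 10 were found among the ranked peaks of replicate 2 and 5 among those of replicate 1.

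**Figure D4:**
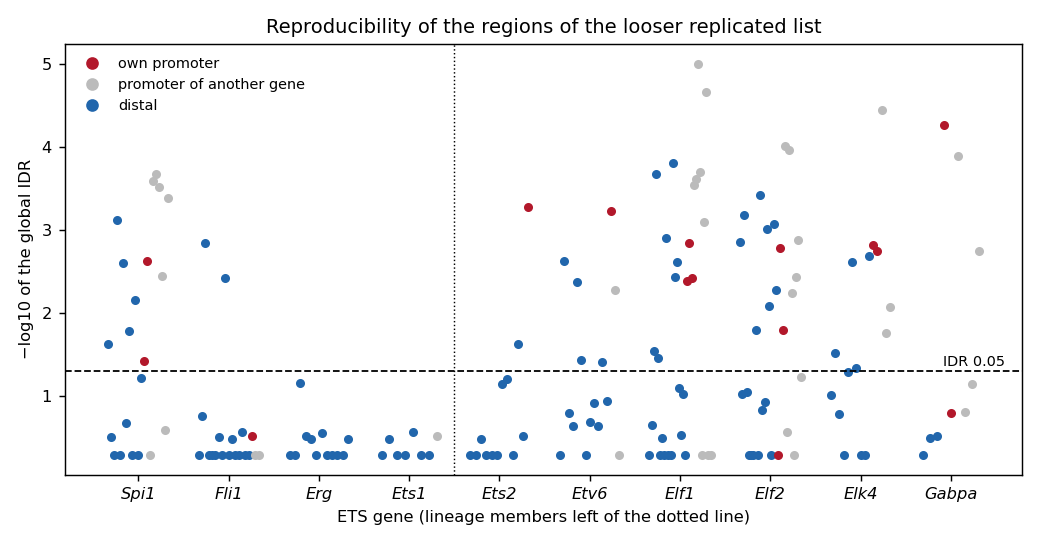
Each point is a region of the looser replicated list within 100 kb of an ETS gene, with −log10 of its global IDR on the vertical axis (higher is more reproducible) and the threshold of 0.05 as a dashed line. The points of Erg and Ets1 are all below the line, and 12 of the 21 points of Spi1 are above it. The conservative list uses the same threshold, so the numbers above the line repeat its counts.

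Of the 65 conservative regions at the 10 loci, 37 (56.9%, 95% Wilson interval 44.8 to 68.2) were also called in both libraries' own lists, beside 60.7% of all regions. Replicate 2 alone called 10, replicate 1 alone 2, and neither called 16 (24.6%), beside 21.4%. Of the 31 distal regions, 14 were called in both (45.2%), beside 41.4% of all distal regions, and of the 34 promoter regions 23, beside 77.4%. These intervals cover counting error only.

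GATA motifs lay in 17 of the 31 distal regions (54.8%, 95% Wilson interval 37.8 to 70.8), beside 39.5% of all distal regions, a share inside that interval. They were in 3 of 7 at the lineage genes and in 14 of 24 at the broadly used genes. Elf2 had them in 5 of 8 distal regions and Elf1 in 4 of 7. In the larger replicated list the share was 43.5% (34.6 to 52.9), beside 38.5%. The composite was found in 3 of 31, beside 11.0%: at Spi1 in the Psmc3 intron and at Elf1 at +14.7 kb and −40.4 kb.

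The shares of regions with an ETS motif were near those over all regions. ETS motifs were in 1 of 31 distal regions, at Etv6, beside 3.99% of all distal regions, and in 3 of 34 promoter regions, beside 10.1%. Among promoter regions of the ETS genes themselves, those of Elk4 and Gabpa held one. The third was the Acp2 promoter near Spi1. RUNX motifs were in 5 of 31 distal regions, beside 22.3%, and in 2 of 34 promoter regions, beside 9.20%: the upstream one of Spi1 and that of Mfsd4a near Elk4. GATA motifs were in 2 of 34 promoter regions, beside 9.41%. Over all 65 regions, 19 held a GATA motif (29.2%, beside 23.4%) and 4 an ETS motif (6.15%, beside 7.30%). A motif match describes the sequence and does not show that a factor is bound.

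The rest of the ETS family was counted in the same way. Of 16 further ETS genes in the annotation, 7 had a promoter region: Elk1 (17.6) and Etv5 (17.2), Etv3 (14.4), Erf (13.8), Elf4 (13.0), Etv4 (10.5) and Elf3 (10.3). That share, 43.8%, was near the 42.9% of all genes. The median signal of these 7 was 13.8, beside 8.79 for the 7 members with a promoter region and 13.9 for all genes with one. Neither of the close relatives of Spi1, Spib and Spic, had a promoter region in any list counted. Elk3 had none either, while Elf5 and Ehf, which are epithelial, had one in the replicated list.

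Among 12 partner genes, 8 had a promoter region, beside 42.9% of all genes. Srf, the partner of ELK4, had a signal of 20.1, Cbfb of 15.8, and Gabpb2, a partner subunit of GABPA, of 13.2. Jun had 10.9. The hematopoietic partners Runx1 (7.99), Gata1 (7.02), Tal1 (5.34) and Gata2 (4.90) were the weakest of the 8. Of these, Runx1 was in both libraries' lists, Gata1 in that of replicate 2, and Tal1 and Gata2 in neither. Cebpa and Irf8, partners of PU.1 in myeloid cells, had none. Gabpb1 and Myb had none either, but each had one in the replicated list.

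Lists of known target genes differed widely. All 12 mitochondrial targets of GABP had a promoter region in both libraries, with a median signal of 18.4, Cox7a2 at 20.8 and Nrf1 at 10.8 being the highest and lowest. Of 12 myeloid targets of PU.1, 3 did (25%, beside 42.9% of all genes): Csf2ra (16.2), Ncf4 (9.56) and Fcgr3 (5.57), the last in neither library's list. Of 12 megakaryocyte targets of FLI1, 4 did: Tubb1 (11.3), Itga2b (10.6), Gp1ba (9.07) and Pf4 (8.36). In the replicated list these counts were 12, 6 and 6, beside 47.8% of all genes, so the lists of PU.1 and FLI1 were near the background there. The FLI1 list holds all 10 megakaryocyte markers counted above, and the same 4 genes had a promoter region. The PU.1 list holds the myeloid markers Csf1r, Csf3r, Itgam, Cd68, Fcgr3 and Lyz2. The counts of these lists are thus not independent of the marker counts. The targets are named from general knowledge, and nothing here measures whether the factors were bound.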

How the data were processed

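Per the labels, ATAC-seq was made on 2 libraries of 50000 G1E-ER4 cells, on the mm10 assembly. Read depth was unknown, and no interval for a signal could be given. Aligner, peak caller, filters and versions: not given in the sources used here. Of 13 deposited peak lists 12 were read. Per the deposited file list, the authors called peaks per library, on pseudoreplicates and on both libraries, with an exclusion list among the inputs. The signal per peak is the authors' enrichment value, of unstated scaling. The deposited −log10 p of each peak was not used in any result. In the deposited ranked lists the score gives the global IDR as −log10.

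Overlapping peaks were merged and represented by the strongest summit. GENCODE M21 gave the starts of all transcripts. A library called a region where at least 50% of the shorter region overlapped its own list. Motifs were searched within 100 bp of the summit (Python 3.11.15, pysam 0.24.0), after the code was tested on simulated data. The members, gene lists and choices were set with earlier results of these data known. Named were all members, of the other lists up to 8 genes with a promoter region by signal, and each member's strongest regions. Sequences of untranslated exons were not printed, nor were those of the Spi1 and Gabpa promoters and the strongest Fli1 region. The reference table of promoter sequences matched 7 members; Spi1, Fli1 and Ets1 were not matched. Alternatives changed the list, the windows, the starts, the signal minimum, the motif width and the classes of Etv6 and Ets1.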

Additional observations from a re-analysis of the deposited data

How the results depend on the processing

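No paired analysis was possible because both libraries belong to 1 group. The differences between the classes kept their sign under every alternative. The other results are counts or shares, which cannot change sign. In the replicated list the median number of distal regions was 12 at the lineage genes and 11.5 at the broadly used genes, the reverse of the order of the means. The cause of each change was not tested except where the alternative removes regions by its construction. Members with a promoter region numbered 7, and 7 without replicate 1 or 2, 6 with a 500 bp window (without Etv6) and 2 (Ets2 and Gabpa) among regions at or above the median signal. Distal regions per member (3.1) came to 11.8 in the replicated and 31.8 in the archived list, 1 at or above the median signal, 3.9 with a 500 bp window, 2.4 within 50 kb, and 1.6 without replicate 2 and 2.4 without replicate 1, where the other library's own list was used. The promoter share of broadly used minus lineage genes (75 percentage points) came to 50 in the replicated and 50 in the archived list, 33.3 at or above the median signal, 58.3 with 500 bp, 60 with Etv6 as a lineage gene and 52.4 with Ets1 as broadly used. The difference in mean distal regions (2.25) came to 1.33 in the pooled-pseudoreplicate list thresholded by IDR. It was 0.0833 and 9.25 in the replicated and archived lists and 0.417 at or above the median signal. With windows of 500 bp and 2 kb it was 3.17 and 1.75, with starts of protein-coding transcripts 2.92, and within 50 kb 1.5. It was 1.8 and 1.10 with Etv6 or Ets1 reassigned, and 1.42 without replicate 2 and 1.92 without replicate 1. The share of member regions with a GATA motif (29.2%) came to 34.2% and 31.7% in the replicated and archived lists, 34.6% at or above the median signal, and 15.4% within 50 bp of the summit. The ETS share (6.15%) came to 3.16% and 3.14%, 7.69% and 3.08% in the same order, and 7.84% without replicate 1 and 10% without replicate 2. The count of 37 regions called in both libraries was the same with an overlap of 1 bp. Depth was unknown and limits what a missing region can show.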
